A study of Mus musculus with 20 samples.

Results

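The axon guidance ligands and receptors examined here are the autosomal protein-coding genes whose symbol starts with Sema, Plxn, Epha, Ephb, Efna, Efnb, Unc5 or Slit and a number, together with Ntn1, Ntn3, Ntn4 and Dcc. The rule used names and chromosomes alone, and it found 61 of 21320 autosomal protein-coding genes in the mm9 annotation. They are 20 semaphorins, 7 plexins, 7 ephrins, 14 Eph receptors, 3 netrins, 5 netrin receptors and 3 Slits. The other 2, Unc50 and Unc5cl, share only the prefix and are no guidance receptors by name, so 59 members carry a guidance family name. On chromosome X, 3 genes of the same families (Efnb1, Plxna3 and Plxnb3) were left out by the rule.

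ChIP-seq (sequencing of DNA bound to an immunoprecipitated protein) was used in the series to map 2 transcription factors and 4 histone marks in the ventral forebrain of mouse embryos at embryonic day 13.5. The factors NKX2-1 and LHX6, both known from the medial ganglionic eminence (MGE), the birthplace of many interneurons, were mapped in basal ganglia of CD-1 wild-type embryos. The marks were H3K27ac of active promoters and enhancers, H3K4me1 of enhancers and promoter flanks, H3K4me3 of promoters and H3K27me3 of Polycomb-repressed genes. They were mapped in MGE of C57BL/6 embryos of wild type or Nkx2-1cKO genotype, the latter a conditional loss of Nkx2-1 and named the mutant below. The driver of the deletion and the number of embryos pooled are not given in the sources used here. The factor lists thus came from another strain and dissection than the marks, and no factor list of the mutant was analysed here. With 1 library for each antibody in each genotype there was no replicate error and no test, and differences describe the libraries compared.

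The files are lists of enriched regions from 10 of the 20 libraries, each made from 26.8 to 89.1 M tags (M, mega). The wild-type and mutant lists held 62591 and 67387 regions of H3K27ac and 21252 and 28077 of H3K27me3, and the factor lists 5683 peaks of NKX2-1 and 1651 of LHX6. For each mark the mutant list was the longer. Around the transcription start sites (TSSs) of all genes together, mutant coverage was 1.08 times that of wild type in H3K27ac, 1.03 times in H3K4me1, 1.13 times in H3K4me3 and 1.21 times in H3K27me3. The last exon of Nkx2-1 (chromosome 12, 57632922 to 57634767) was covered by H3K4me3 over 100% of its length in wild type and by none of the 4 marks over its length in the mutant. All 12 MGE and ventral telencephalon markers had promoter H3K27ac in wild type, as did all 7 markers of the lateral and caudal eminences and 1 of 6 pallial markers. The counts were the same in the mutant, so this mark does not separate the MGE from those eminences. Promoter H3K27me3 also lay at all markers of these groups in wild type. Of markers of other cells and organs, 0 of 5 endothelial, 0 of 5 microglial, 2 of 2 blood and 2 of 3 liver markers had promoter H3K27ac in wild type. Summed H3K27ac at the MGE markers was 166 kb in the wild-type library and 139 kb in the mutant one, and at 7 markers of the neighbouring lateral and caudal eminences it was 75.2 and 126 kb. The part of this difference between the dissected tissues in the results on guidance genes was not tested. In such bulk tissue, fewer cells that carry a mark and less of the mark per cell cannot be told apart.

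Guidance cues steer growing axons and migrating neurons by attraction and repulsion. Semaphorins signal through plexins, the secreted class 3 forms mostly together with neuropilins. Ephrins and Eph receptors signal between touching cells, netrins act through Dcc and the Unc5 receptors, and Slits act through Robo receptors. In the ventral forebrain these systems are known for sorting interneurons that leave the MGE away from the striatum, with class 3 semaphorins and ephrins as repellents, and for guiding axons through the basal ganglia.

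Sequences are shown for 5 factor peaks near members, because they show which of the letters searched for lay under the peaks that the results turn on. The first 3 are among the strongest NKX2-1 peaks near members. The Sema6d peak was chosen after its values were seen, because its H3K27ac was found in wild type alone, and the Epha3 peak is the LHX6 peak near a member with the highest fold enrichment. Each is 200 bases around the summit, plus strand of NCBIM37 (mm9), 5′ to 3′. Capitals mark 2 kinds of short motif, each searched on both strands. The NK2 core of NKX2-1 and its relatives was searched as CACTTGA and, in its second form, as CACTCAA. The core of LIM homeodomain factors was searched as TAATTA and, in its second form, as TAATGA. The windows are chr1:77528878-77529077, chr1:77512858-77513057, chr4:136472378-136472577, chr2:124482734-124482933 and chr16:63903655-63903854, in the order printed.
Epha4 upstream, NKX2-1: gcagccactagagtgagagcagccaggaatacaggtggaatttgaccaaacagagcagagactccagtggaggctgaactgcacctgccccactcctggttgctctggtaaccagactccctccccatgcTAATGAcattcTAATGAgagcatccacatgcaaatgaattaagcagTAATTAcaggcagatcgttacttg
Epha4 promoter, NKX2-1: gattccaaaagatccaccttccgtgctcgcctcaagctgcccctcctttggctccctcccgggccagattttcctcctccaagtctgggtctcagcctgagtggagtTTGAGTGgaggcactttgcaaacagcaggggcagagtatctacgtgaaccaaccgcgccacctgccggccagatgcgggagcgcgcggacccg
Epha8 downstream, NKX2-1: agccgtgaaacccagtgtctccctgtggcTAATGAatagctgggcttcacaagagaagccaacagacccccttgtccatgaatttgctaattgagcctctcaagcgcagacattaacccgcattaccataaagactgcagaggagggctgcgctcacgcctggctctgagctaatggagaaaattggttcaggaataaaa
Sema6d intron, NKX2-1: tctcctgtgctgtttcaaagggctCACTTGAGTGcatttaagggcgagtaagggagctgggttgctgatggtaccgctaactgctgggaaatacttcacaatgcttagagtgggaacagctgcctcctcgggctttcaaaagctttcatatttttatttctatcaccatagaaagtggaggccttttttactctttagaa
Epha3 upstream, LHX6: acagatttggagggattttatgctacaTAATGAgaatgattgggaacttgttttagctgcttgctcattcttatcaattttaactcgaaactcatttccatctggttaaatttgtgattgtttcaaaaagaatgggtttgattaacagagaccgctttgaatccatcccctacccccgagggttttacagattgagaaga
The Epha4 upstream peak held 3 LIM cores and no NK2 core, and the Epha4 promoter peak 1 NK2 core. In the Sema6d peak 2 NK2 cores overlap in 1 run of capitals. The Epha8 and Epha3 windows held 1 LIM core each. Such a match is a description of the letters and not a site.

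Most guidance genes carried active promoter marks in wild type, and most also carried H3K27me3. A region within 2.5 kb of a TSS was found for H3K4me3 at 58 of 61 members (95.1%, against 65.4% of all autosomal protein-coding genes), for H3K4me1 at 60 (98.4% against 65.7%) and for H3K27ac at 55 (90.2% against 58.1%). In the mutant these were 59 (96.7% against 66.6%), 60 (98.4% against 65.6%) and 58 (95.1% against 59.9%). H3K27me3 lay at 37 members in wild type (60.7% against 21.0%) and at 40 in the mutant (65.6% against 23.9%). All 37 and all 40 also had H3K4me3, against 19.9% and 23.0% of all genes with both marks, and 35 had both in both genotypes (57.4% against 19.5%). In wild type 21 members had H3K4me3 without H3K27me3 (34.4% against 45.6%), 0 the reverse (background 1.13%) and 3 neither (4.92% against 33.4%), namely Sema3b, Sema3g and Unc5cl. At 32 of the 37 (52.5% of members against 13.4% of genes) wild-type H3K27ac lay at the promoter too. Each mark was scored at any TSS of a gene, so marks counted together can lie at different TSSs. Counting only regions with a −log10 p of at least 10, H3K27me3 lay at 25 members in wild type and 35 in the mutant. Of all genes, 3.5% gained it and 0.539% lost it at that limit, so the background rose too. With the mutant list cut to the wild-type covered length, H3K27me3 lay at 37 and 29, while 0.375% of all genes gained it and 3.64% lost it. This cut removed mutant regions alone and left the wild-type list whole. Whether these marks sat in the same cells cannot be told from bulk tissue. Members had more CpG-rich promoters than all genes, with a median observed over expected CpG ratio of 0.696 against 0.564, and longer genes, with a median of 56.6 kb against 15.6 kb. They also had more TSSs, with a mean of 2.61 against 2.06. The part of these features in the shares was not tested.

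**Figure D1:**
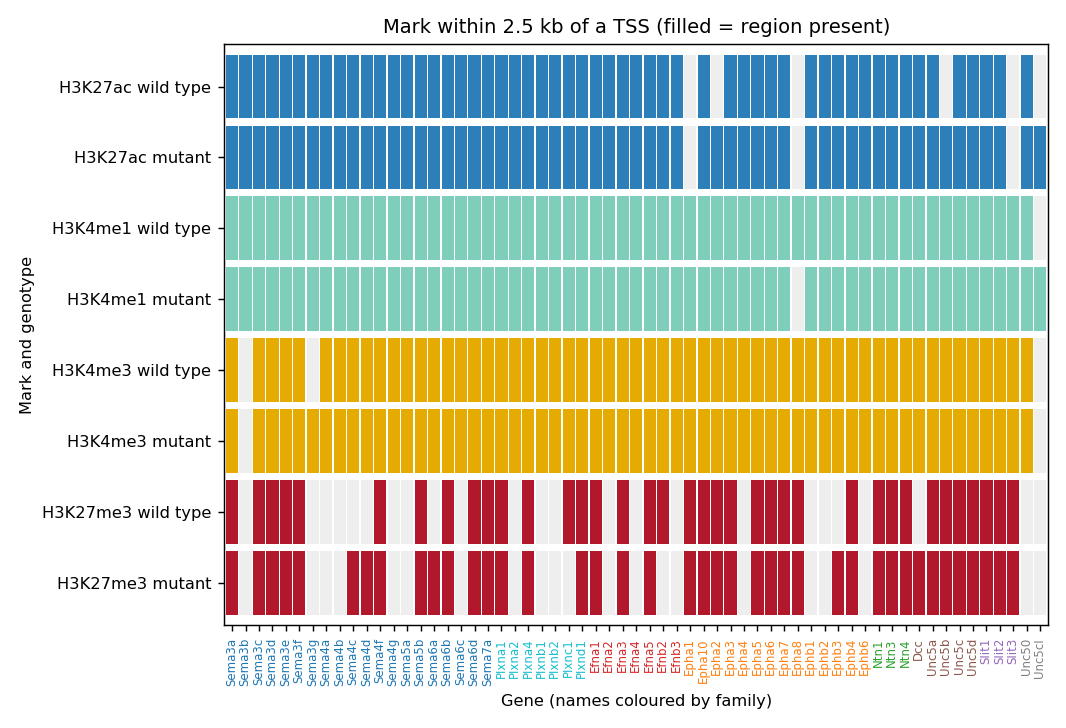
Presence of each mark within 2.5 kb of a TSS for the 61 members (x axis, names coloured by family), with 1 row for each mark and genotype. Filled cells are regions present. The H3K27me3 rows are filled for 37 members in wild type and 40 in the mutant, and the other rows for 55 to 60.

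The H3K27me3 promoters divided unevenly within families. Of the class A Eph receptors, which bind mainly the membrane-anchored ephrin-As, 8 of 9 carried the mark in both genotypes, and Epha4, which also binds ephrin-Bs, was the exception. Of the class B receptors 1 of 5 carried it in wild type (Ephb4) and 2 in the mutant. Both plexin-Bs lacked it in both genotypes, while all 3 Slits and all 3 netrins carried it in both. Among semaphorins it lay at 5 of 7 secreted class 3 genes in both genotypes. In class 4, whose members span the membrane, it lay at 1 of 6 in wild type and 3 of 6 in the mutant. Of the netrin receptors 4 of 5 carried it in wild type, and Dcc, the attractive receptor, was the fifth in the mutant. Presence counts weak regions as well as strong ones. The strongest wild-type H3K27me3 promoter region had a fold enrichment of 2.73 at Ephb4, 3.24 at Epha1 and Ntn4 and 3.63 at Ntn3. It was 7.4 at Ntn1, 5.19 at Slit1, 8.18 at Slit2 and 9.21 at Slit3. The groups are of 2 to 9 genes, and these shares are descriptions.

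Few members gained or lost a promoter mark of activity. No member lost promoter H3K27ac (background 0.6%), and 3 gained it (4.92% against 2.49%). Epha2, an ephrin-A receptor, had a mutant region of fold enrichment 3.52. Unc5b, a repulsive netrin receptor, had one of 6.1, and Unc5cl, a prefix-only member, one of 3.64. H3K4me3 was lost by no member (background 0.108%) and gained by 1 (1.64% against 1.28%), Sema3g, a secreted semaphorin, with a fold of 4.58. For H3K4me1, Epha8 lost the promoter region and Unc5cl gained one, 1 member in each direction, against 1.36% and 1.18% of all genes. The fold enrichment is the authors' ratio of ChIP to control at the summit and ranks regions within a list.

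H3K27me3 at promoters was gained by 5 members (8.2% against 3.45%) and lost by 2 (3.28% against 0.53%). The gains were at Ephb3, a receptor for ephrin-Bs (fold 4.56), Sema4d, a ligand of Plxnb1 (4.28), Sema4c, a ligand of Plxnb2 (4.14), Sema6a, a transmembrane ligand of plexin-As (3.73), and Dcc (3.18). The losses were at Plxnc1, the receptor of Sema7a (wild-type fold 3.63), and Efnb2, a transmembrane ephrin (2.98). With the mutant H3K27me3 list cut to the wild-type covered length, 1 member gained the mark (1.64% against 0.375%) and 9 lost it (14.8% against 3.64%). That cut kept mutant regions down to a −log10 p of 13.3 and wild-type ones down to 5.11. It can therefore remove gains and add losses but not the reverse. With regions of a −log10 p of at least 10 alone, the same limit in both lists, 11 gained H3K27me3 (18% against 3.5%) and 1 lost it (1.64% against 0.539%). The gained and lost regions had folds of at most 4.56, whereas the H3K27me3 promoter region of Slit2 had a fold of 8.18 in wild type and 12.3 in the mutant.

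Around their TSSs the members had 375.2 kb of H3K27ac in wild-type tissue and 404.2 kb in mutant tissue, a ratio of 1.08 that equals that of all genes. The length was taken over the stretch that reaches 10 kb past the outermost TSSs of a gene on both sides, including what lies between TSSs, so windows ran from 20 to 620 kb. H3K27ac was longer in the mutant at 34 members (55.7% against 45.7% of all genes), shorter at 25 (41.0% against 21.6%) and equal at 2. H3K27me3 went from 122.5 to 165.0 kb, a ratio of 1.35 against 1.21 for all genes, and was longer at 36 (59.0% against 26.4%), shorter at 7 (11.5% against 4.61%) and equal at 18. H3K4me3 went from 299.2 to 345.1 kb and H3K4me1 from 490.2 to 523.6 kb, ratios of 1.15 and 1.07. H3K4me3 was longer in the mutant at 48 members (78.7% against 65.5%) and shorter at 12 (19.7% against 7.17%). H3K4me1 was longer at 26 (42.6% against 37.1%) and shorter at 35 (57.4% against 37.1%). Fewer members than genes at large had equal lengths, so both shares can lie above those of all genes.

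Members differed widely in the amount of each mark. H3K4me3 was longest at Efna5, with 15 and 21.1 kb in wild type and mutant, and next in wild type at Epha4 (13.6 kb) and in the mutant at Sema6a (15.6 kb), while Sema3g had 0 and 0.36 kb. H3K4me1 was longest at Sema5b in wild type (49.8 kb) and at Efna5 in the mutant (57.1 kb), and shortest at Sema4f (0.393 kb) and Sema3g (0.276 kb). H3K27me3 was longest in wild type at Efna5 (12.3 kb), Epha10, an Eph receptor without kinase activity (11.2 kb), and Ntn1 (9.83 kb). At 18 members it was absent from the window in both genotypes. These 18 hold Ephb1, Ephb2 and Ephb6, both plexin-Bs and Plxna2, and Sema5a beside Epha4. Genes with several distant TSSs have longer windows, so lengths are best set side by side within a gene.

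A member was called where the larger length was at least 1.5 times the smaller and the difference at least 1 kb. Where 2 lengths follow a gene, the wild-type one comes first. By this rule 20 of 61 members were called in at least 1 mark, 32.8% against 9.99% of all autosomal protein-coding genes. Members had longer windows (mean 73.4 against 32.4 kb) and more wild-type H3K27ac (median 3.74 against 1.17 kb), which makes a 1 kb difference easier to reach. The part of this in the share was not tested. For H3K27ac 6 members were called longer in the mutant (9.84% against 2.44%) and 2 shorter (3.28% against 1.03%). Among genes with at least 1 kb in either genotype, the calls were 6 of 52 (11.5% against 4.27%) and 2 of 52 (3.85% against 1.79%). With the mutant list cut to the wild-type covered length, 4 were called longer (6.56% against 1.48%) and 5 shorter (8.2% against 1.68%). For H3K27me3 11 were called longer (18% against 3.96%) and 0 shorter (background 0.244%). Among the 37 members with at least 1 kb of it the 11 made up 29.7% against 17.4%, and the 0 compared with 1.07%. H3K4me1 was called longer at 3 (4.92% against 1.68%) and shorter at 1 (1.64% against 1.03%), which among the 58 members with at least 1 kb were 5.17% against 2.67% and 1.72% against 1.63%. H3K4me3 was called longer at 2 (3.28% against 2.02%) and shorter at 0 (background 0.0891%). Among the 59 members with at least 1 kb of H3K4me3 these were 3.39% against 3.02%, and 0 against 0.133%. No member combined longer H3K27ac with shorter H3K27me3 (background 0.0938%) or the reverse (0.183%).

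**Figure D2:**
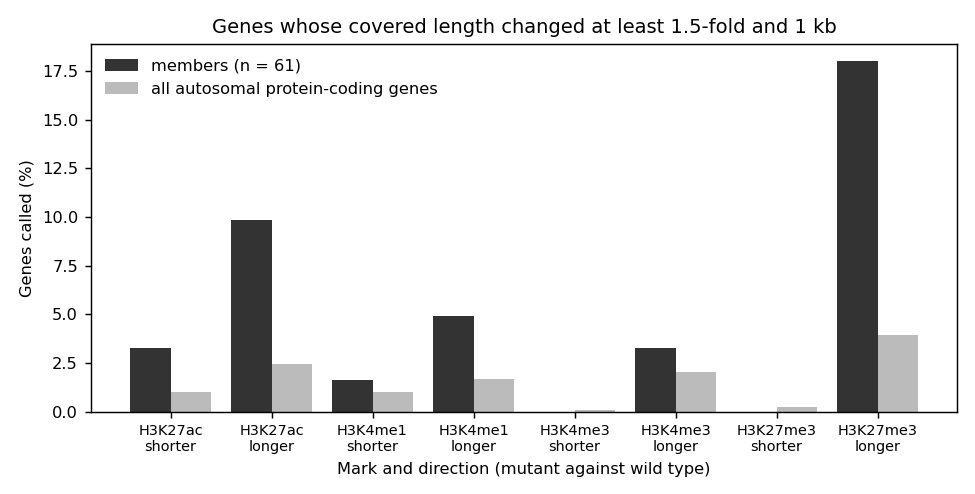
Share of genes (y axis, in percent) whose covered length was called longer or shorter in the mutant, for each mark, in the 61 members (dark bars) and in all autosomal protein-coding genes (grey bars). The gaps are widest for longer H3K27me3 (18% against 3.96%) and longer H3K27ac (9.84% against 2.44%).

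**Figure D3:**
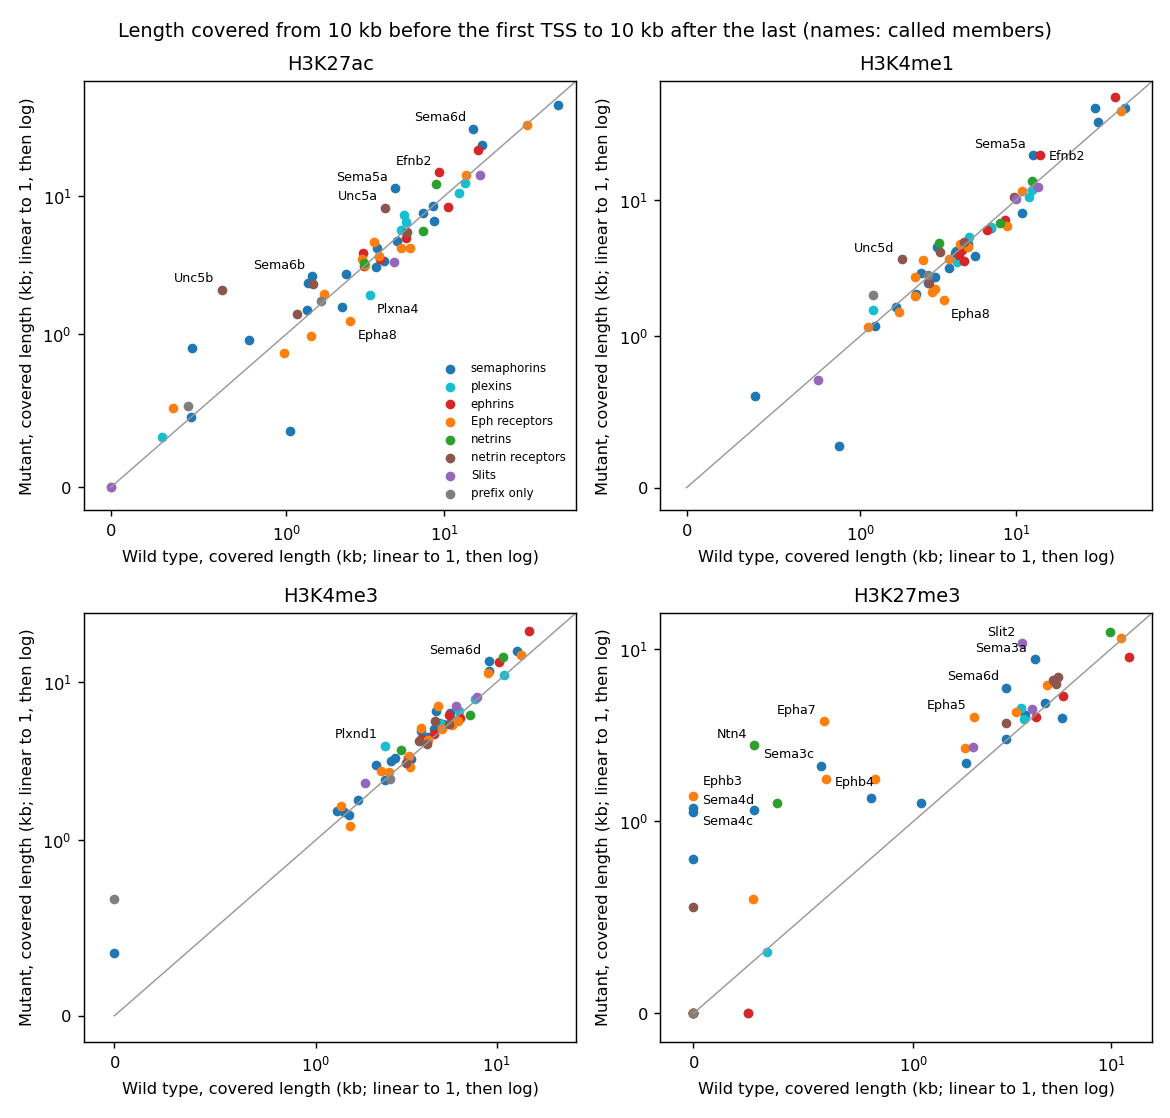
Covered length in kb around the TSSs of each member in wild type (x axis) and mutant (y axis), 1 panel per mark and 1 point per member, coloured by family. Axes are linear to 1 kb and logarithmic above, the line marks equal lengths, and names mark called members, such as Sema6d at 15.2 and 30.8 kb of H3K27ac.

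A semaphorin had the most H3K27ac, and semaphorins had the 4 largest differences in it. Sema5b, a transmembrane semaphorin with thrombospondin repeats, had 52.4 kb in wild type compared with 45.8 kb in the mutant over a 140 kb window, and was not called. Of its regions 15 were in wild type alone and 3 in the mutant alone. Its relative Sema5a was called longer, with 4.88 kb in the wild-type library and 11.4 kb in the mutant one over 377 kb. There, 11 regions with 5.59 kb in all were in the mutant alone and 2 in wild type alone, and none of these 13 overlapped an NKX2-1 peak. H3K4me1 at Sema5a was called longer too, with 12.8 and 21.3 kb. Its H3K27ac call held under all 6 alternative settings tried. Its H3K4me1 call held under 3 of 6, and within 10 kb of each TSS the change in H3K4me1 was 2.66 kb in place of 8.44 kb.

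Sema6d, a transmembrane ligand of Plxna1, was called longer in H3K27ac, H3K4me3 and H3K27me3. H3K27ac covered 15.2 kb in wild-type tissue and 30.8 kb in mutant tissue, H3K4me3 9.02 and 13.5 kb, and H3K27me3 2.94 and 5.94 kb. Its window of 584 kb spans TSSs far apart, and the added H3K27ac lay between them. The 21 regions found in the mutant alone were all intronic, 11.7 to 250 kb from the nearest Sema6d TSS. The strongest had a fold of 7.85 (chr2:123927378-123928225) and the longest 3258 bases (chr2:124161248-124164505, fold 6.8). Of the 21, 10 already carried H3K4me1 in wild type and 14 did in the mutant. Counted only within 10 kb of each TSS, H3K27ac at Sema6d was 1.14 kb shorter in the mutant, so the direction of this call rests on the regions far from the TSSs. The H3K4me3 call at Sema6d held under 2 of 6 settings. With the mutant list cut to the wild-type covered length the change was 0.615 kb in place of 4.51 kb. Its H3K27me3 change was then 1.1 kb in place of 3.0 kb and was not called. One of the 2 regions found in wild type alone (chr2:124482594-124483816, fold 4.71) lay 3.22 kb downstream of a TSS and held the NKX2-1 peak whose sequence is printed above.

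Among the remaining semaphorins, Sema6b, a ligand of Plxna4, went from 1.46 to 2.62 kb of H3K27ac and was called longer, a call that 2 of 6 alternative settings kept. Sema6a had 17.3 kb in wild type compared with 23.3 kb in the mutant, under the call, with 16 regions in the mutant alone and 5 in wild type alone. The secreted class 3 genes had from 0.462 to 8.42 kb of H3K27ac in wild type and from 0.368 to 8.46 kb in the mutant, and none was called. Sema3a and Sema3f, both known as repellents of migrating interneurons, had 1.37 and 3.74 kb in wild type and 2.36 and 4.18 kb in the mutant. The class 4 genes had from 0.457 to 8.56 kb in wild type and from 0.456 to 7.58 kb in the mutant, and none was called. Sema7a, anchored to the membrane by a lipid, had 2.4 and 2.72 kb.

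The plexins differed less. Plxna4, a receptor for class 3 and class 6 semaphorins, was called shorter, with 3.38 kb of H3K27ac in the wild-type library and 1.91 kb in the mutant one. Of its regions 2, at 2.64 and 3.67 kb downstream of the TSS, were found in wild type alone. Plxna2, which binds Sema6a, had 13.4 and 12.4 kb, with 66.9% of its window covered in wild type and 61.8% in the mutant. Plxnb2 had 12.3 and 10.5 kb and lacked in the mutant a region of fold 5.86 (chr15:89014307-89015652). That region lay 3.09 kb upstream of the nearest Plxnb2 TSS, in an exon of another gene. Plxna1 had 5.57 and 7.32 kb, Plxnb1 5.35 and 5.63 kb and Plxnc1 5.68 and 6.46 kb, none of them called. Plxnd1, the receptor of Sema3e, had 0.292 and 0.329 kb of H3K27ac, and its H3K4me3 was called longer, with 2.41 and 3.96 kb. That call held under 3 of 6 settings, and at the same covered length the change was 0.344 kb in place of 1.56 kb.

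Of the ephrins, Efnb2 was called longer in 2 marks. H3K27ac covered 9.3 kb in wild-type tissue and 14.9 kb in mutant tissue, and H3K4me1 14.1 and 21.3 kb. Within 50 kb of its TSSs 7 H3K27ac regions were found in the mutant alone and 0 in wild type alone. The other class B ephrin, Efnb3, had 10.5 and 8.34 kb of H3K27ac. Efna5, a membrane-anchored ephrin with a repellent role in interneuron migration, had 16.3 and 21.7 kb of H3K27ac, 42.9 and 57.1 kb of H3K4me1 and 12.3 and 8.96 kb of H3K27me3, all under the call. It had 17 H3K27ac regions in the mutant alone and 4 in wild type alone, the strongest of fold 4.69 and 4.71. Efna1, Efna2, Efna3 and Efna4 had from 3.06 to 5.71 kb in wild type and from 3.13 to 5.0 kb in the mutant. The windows of Efna3 and Efna4, neighbours on chromosome 3, overlap, so they share some of these bases.

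The Eph receptor with most H3K27ac was Ephb2, a receptor for ephrin-Bs, with 33.2 kb in wild type compared with 32.9 kb in the mutant. Epha4 had 13.7 and 14.2 kb, which filled 68.7% and 71.0% of its window, and no H3K27me3 in either genotype. Epha8, a receptor for ephrin-As, was called shorter in H3K27ac (2.53 and 1.25 kb) and in H3K4me1 (3.43 and 1.85 kb), while H3K27me3 covered 3.3 and 4.27 kb. Within 50 kb of its TSSs 6 of 14 wild-type H3K27ac regions were in wild type alone and 1 of 8 mutant regions in the mutant alone. Ephb3 had 6.04 and 4.17 kb, under the call, with 6 of 11 wild-type regions in wild type alone and 0 of 5 mutant regions in the mutant alone. At Ephb4, the receptor of Efnb2 in vessels, these were 5 of 12 and 0 of 7. Of all autosomal H3K27ac regions, 19.6% of those in wild type and 29.6% of those in the mutant were in 1 genotype alone. The other 9 receptors had from 0 to 3.87 kb in wild type and from 0 to 4.68 kb in the mutant, and none was called. Epha1, known mostly from epithelia, was at 0 in both.

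Among netrins and their receptors, H3K27ac was called longer at 2 of the repulsive receptors. Unc5a went from 4.23 kb in wild type to 8.23 kb in the mutant. Unc5b went from 0.632 to 2.1 kb, and both its mutant-only regions lay at the TSS (chr10:60293433-60294351, fold 5.16, and chr10:60294458-60294865, fold 6.1). H3K27me3 was no shorter in the mutant at either gene, at 5.08 and 6.61 kb for Unc5a and 5.38 and 6.82 kb for Unc5b. Unc5d was called longer in H3K4me1, with 1.84 and 3.68 kb, a call that 3 of 6 settings kept. Within 10 kb of each of its TSSs the change in H3K4me1 was 0.096 kb. Dcc had 5.78 and 5.51 kb of H3K27ac and Unc5c 1.17 and 1.4 kb. The attractant Ntn1 had 8.83 and 12.2 kb, under the call, with 9.83 and 12.4 kb of H3K27me3. None of the 8 netrins and netrin receptors had a factor peak within 50 kb of a TSS.

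The Slits, secreted repellents, differed among themselves. Slit1 had 16.8 kb of H3K27ac in wild type, 83.4% of its window, and 14.2 kb or 70.4% in the mutant. Slit2 had 4.78 and 3.33 kb, and Slit3 had none in either genotype.

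H3K27me3 was called longer at 11 members, in each case without a call of shorter H3K27ac. The largest difference was at Slit2, with 3.55 kb in the wild-type library and 10.7 kb in the mutant one. It had 9 mutant-only regions of 6.1 kb in all, the strongest inside the gene (chr5:48531942-48533368, fold 6.35) and 100 kb from the nearest TSS. Sema3a went from 4.09 to 8.69 kb. Epha7, a receptor for ephrin-As, went from 0.594 to 3.8 kb, with 5 mutant-only regions within 4.21 kb of its TSSs and folds up to 5.8. Next came Sema6d, Ntn4, a netrin of basement membranes (0.276 and 2.75 kb), and Epha5 (2.02 and 4.04 kb). The remaining 5 were Sema3c, Ephb3, Sema4d, Ephb4 and Sema4c, with 0 to 0.601 kb in wild type and 1.13 to 2.1 kb in the mutant. With the mutant list cut to the wild-type covered length, 3 members were called longer (4.92% against 1.04%) and 4 shorter (6.56% against 1.36%). The 3 longer were Slit2, Epha7 and Epha5, while Sema3a turned to 1.6 kb shorter. This cut removed mutant regions alone, so it works against calls of longer H3K27me3.

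**Figure D4:**
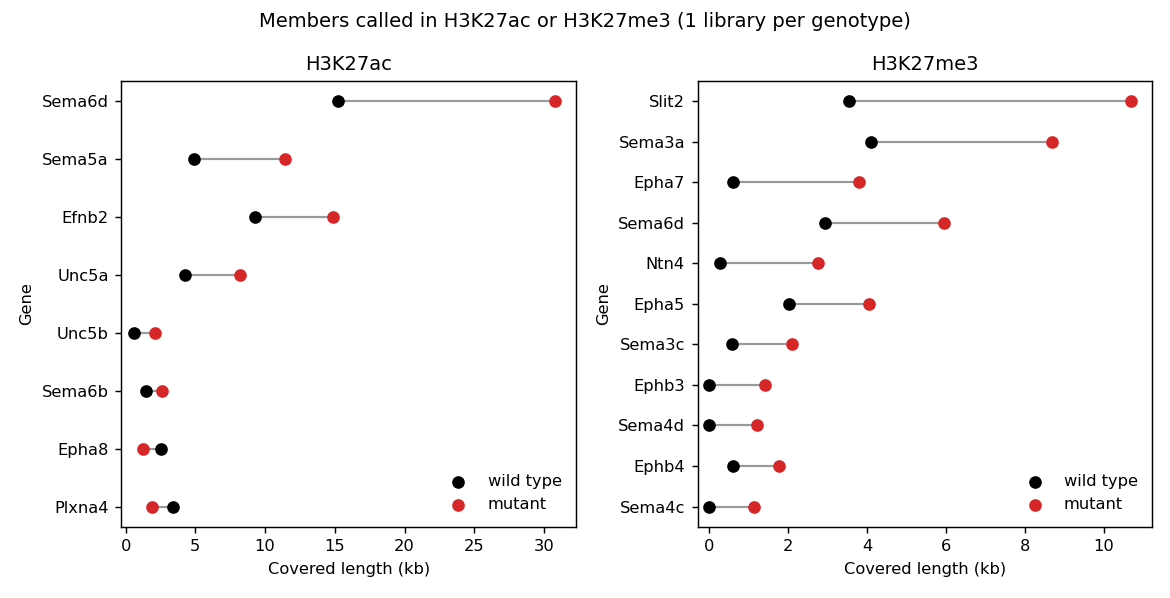
Covered length (x axis, in kb) in wild type (black) and mutant (red) for the members called in H3K27ac (left) and H3K27me3 (right), ordered by the difference, with 1 library per genotype and hence no error bars. In H3K27ac 6 members lie higher in the mutant and 2 lower, and in H3K27me3 all 11 lie higher.

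Of single H3K27ac regions near members, the shares lost and gained were not above those of all regions. Of 558 wild-type regions within 50 kb of a member TSS, 104 (18.6%, Clopper-Pearson 95% interval 15.5 to 22.1) overlapped no mutant region, against 19.6% of all autosomal regions. Of 556 mutant regions 134 (24.1%, 20.6 to 27.9) overlapped no wild-type region, against 29.6% (29.3 to 30.0). Away from H3K4me3 the shares were 36.0% lost (29.9 to 42.5) against 40.4% and 42.8% gained (36.5 to 49.3) against 50.2%. The intervals cover counting error only, and regions near 1 gene are not independent. The numbers gained and lost were 16 and 6 at Sema6a, 11 and 1 at Sema5a, and 5 and 11 at Sema5b.

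NKX2-1 peaks lay near 28 members and LHX6 peaks near 3. An NKX2-1 peak within 50 kb of a TSS was found at 45.9% of members against 27.7% of all autosomal protein-coding genes. Among genes with promoter H3K27ac in wild type it was 26 of 55 members (47.3% against 37.2%). A peak near any TSS counted, and members had more TSSs (mean 2.61 against 2.06). The part of this in the shares was not tested. LHX6 peaks lay near Epha3, Epha4 and Plxnd1 (4.92% against 2.78%, or 2.66% without peaks found in all 10 lists), which all also had NKX2-1 peaks (4.92% against 2.24% with both). Of the families, 5 of 7 plexins, 8 of 14 Eph receptors, 4 of 7 ephrins, 9 of 20 semaphorins and 1 of 3 Slits had an NKX2-1 peak. Most had few, and the highest number was 3, at Plxna2 and Sema4c. Within 10 kb of a TSS, NKX2-1 peaks lay near 10 members and LHX6 peaks near 0. The shares of all genes above are for 50 kb and cannot be set beside these counts. Members close together can share a peak, as Efna1 and Efna3 do.

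The 42 NKX2-1 peaks near members were mostly at active chromatin in both genotypes. H3K27ac overlapped 40 of them in wild type (95.2%, 83.8 to 99.4, against 70.7% of 5613 autosomal NKX2-1 peaks) and 39 in the mutant (92.9%, 80.5 to 98.5, against 65.4%). H3K4me3 overlapped 35 in wild type (83.3% against 61.5%), and 19 lay within 2.5 kb of the TSS of some gene (45.2% against 27%). H3K27me3 overlapped 3 (7.14% against 8.28%) and an LHX6 peak 1 (2.38% against 17.7%). Of the 40 with H3K27ac in wild type, 2 lacked it in the mutant (5.0% against 10.5%). These were the Sema6d peak and a peak in Ephb2. An NK2 core lay in the 200 bases of 7 peaks (16.7%, 6.97 to 31.4, against 21.5% of all NKX2-1 peaks) and in 4.9% of windows of the same length to the sides. LIM cores lay in 7 (16.7% against 25.9%, and 15.1% to the sides).

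**Figure D5:**
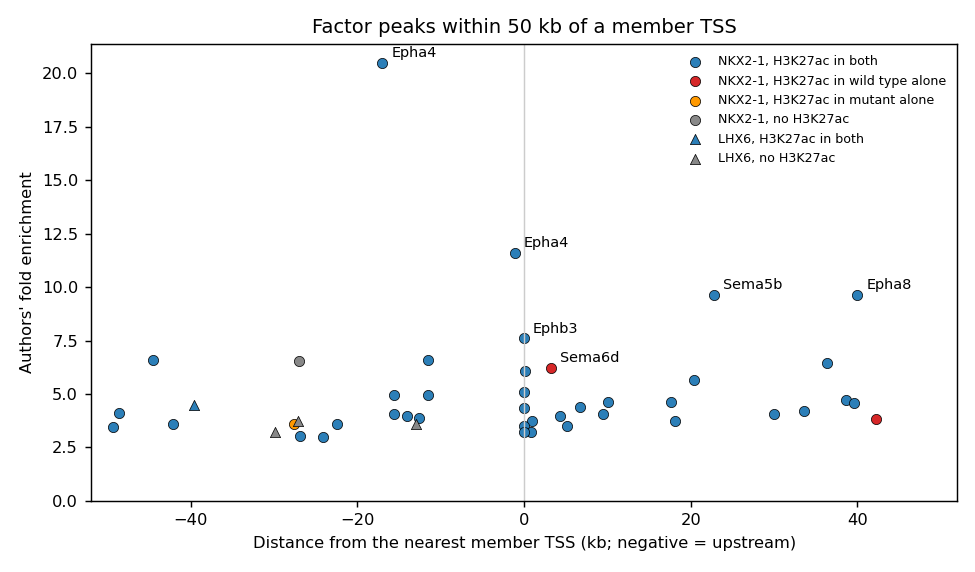
Authors' fold enrichment (y axis) of the NKX2-1 (circles) and LHX6 (triangles) peaks within 50 kb of a member TSS against the distance to the nearest member TSS (x axis, in kb, negative upstream), coloured by H3K27ac over the peak. The strongest peak, with a fold of 20.5, lies 17 kb upstream of Epha4, and the 2 peaks with H3K27ac in wild type alone have folds of 6.23 (Sema6d) and 3.81 (Ephb2).

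The strongest peak near a member was at Epha4, which is known for receiving ephrin signals in migrating interneurons and motor axons. It lay 17 kb upstream (chr1:77528689-77529310) with a fold of 20.5, rank 12 of 5613 NKX2-1 peaks. A second lay 1.08 kb upstream in the promoter (chr1:77512743-77513182) with a fold of 11.6, rank 99. Both overlapped H3K27ac, H3K4me1 and H3K4me3 in both genotypes, and the promoter H3K27ac region had a fold of 14.5 in wild type and 17.5 in the mutant. The LHX6 peak of Epha4 lay 13.0 kb upstream, apart from these, with a fold of 3.6 and no mark. The next were in an intron of Sema5b (chr16:35564487-35564980) and 40 kb downstream of the nearest Epha8 TSS (chr4:136472279-136472700), both with a fold of 9.64 and the active marks in both genotypes. The second of these lay 17.6 kb from C1qa, a closer gene. At Ephb3 a peak of fold 7.6 covered the TSS. Of the remaining 3 among the 8 strongest, 2 lay at promoters of neighbouring genes, near Efna2 and Unc5cl (6.61 each), and 1 in an exon of Tmcc1 near Plxnd1 (6.54). That last peak overlapped an LHX6 peak and no mark.

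The LHX6 peak upstream of Epha3, a receptor for ephrin-As, lay 39.6 kb from the TSS (chr16:63903609-63903892) with a fold of 4.5, and was the 1 of 4 LHX6 peaks near members that overlapped H3K27ac, in both genotypes. Epha3 had 3.57 kb of H3K27ac in wild-type tissue and 4.68 kb in mutant tissue. Of the LHX6 peaks near members 1 of 4 held a LIM core, against 42.4% of all autosomal LHX6 peaks and 17.8% of windows to the sides.

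Members with an NKX2-1 peak had more H3K27ac than those without in both genotypes. Their medians were 5.52 kb in wild type compared with 4.85 kb in the mutant (n = 28), and those of the others 2.25 and 2.36 kb (n = 33). The same order held over all genes, with medians of 2.02 and 2.12 kb for genes with such a peak and 0.696 and 0.853 kb for genes without one. H3K27ac was called longer at 1 of the 28 (3.57%, against 2.76% of all genes with such a peak) and at 5 of the 33 (15.2% against 2.32%), and shorter at 1 in each (3.57% against 2.11%, and 3.03% against 0.61%). The 1 called longer among those with a peak was Sema6d. H3K27me3 was called longer at 6 of the 28 (21.4% against 4.91%) and 5 of the 33 (15.2% against 3.6%). Promoter H3K27me3 in wild type was found at 14 of the 28 (50% against 22.6%) and 23 of the 33 (69.7% against 20.4%).

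Other genes of the guidance pathways were taken from a list of 55 co-receptors, further ligands and signalling proteins, of which 54 matched the annotation. H3K27ac was called longer at 4 and shorter at 3, of 54, beside the shares of all genes given above (2.44% and 1.03%). The longer were Nrg1, a growth factor that attracts MGE interneurons (3.16 and 10.3 kb), Dscam, a netrin receptor (2.4 and 5.05 kb), Vav3, an exchange factor downstream of Eph receptors (2.18 and 3.61 kb), and Ablim1, an actin-binding LIM protein (2.71 and 4.33 kb). The shorter were Tiam1, an activator of Rac (34.0 and 18.1 kb), Mical2, an actin-oxidising enzyme (10 and 4.73 kb), and Flrt1, a ligand of Unc5 receptors (9.1 and 5.28 kb). H3K27me3 was called longer at 5 (background 3.96%) and shorter at 1 (background 0.244%), Rgmb, a ligand of neogenin (2.57 and 0.34 kb). H3K4me3 was called longer at 3 (background 2.02%), one of them Robo1, a Slit receptor (5.27 and 8.33 kb), and shorter at 0 (background 0.0891%). H3K4me1 was called longer at 3 (background 1.68%) and shorter at 1 (background 1.03%).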

How the data were processed

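Peak lists of 10 of 20 libraries were used, and the 10 input and IgG libraries without one were not analysed here. The submitters' processing notes name BWA 0.6.2 (after CASAVA 1.8.2 and bcl2fastq 1.8.4), the build mm9 and, for peaks, MACS2 2.1.0. The authors ran MACS 2.1.0.20140616 with an input as control and a p-value limit of 1e-05, per the file headers. They turned off the local background and the fragment model, extended tags to 250 bases and kept 1 tag per position. One input served H3K27ac, H3K4me1 and H3K27me3 of a genotype and another H3K4me3, per the file headers. In the deposited lists the pileup is a signal (extended tags at the summit), significance stands in columns of −log10 p-value and of −log10 q-value, while the fold is the ratio of ChIP over control. The q-values were left unused, since the headers call them not calculated. After duplicate removal 26.8 to 89.1 M tags (M, mega) remained, per the file headers, with 28.3% and 34.0% duplicates in the wild-type and mutant H3K4me3 libraries and at most 6.96% in the others.

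Summits listed for the same region were combined into 1 region, and chromosomes 1 to 19 and X were kept. The list sizes given, and the cut to the same covered length, therefore include chromosome X. Genes, and regions called autosomal, are of chromosomes 1 to 19. TSSs (43997) came from protein-coding genes of GENCODE vM1 on NCBIM37, and peak sequences from the NCBIM37 genome. The 2 entries of Efna5 were merged. Computations used Python 3.11.15 with pandas 2.3.3, numpy 2.4.6, pysam 0.24.0 and scipy 1.17.1, and figures matplotlib 3.10.9, and the length and overlap routines were tested on simulated data. An overlap of 1 base counted. Members and lists were chosen with earlier results of these data known. Values were printed for members called by covered length or promoter mark, for the 8 strongest peaks of each factor and for the 5 members with most H3K27ac, and other members as context. The Sema6d sequence was chosen after its values were seen.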

Additional observations from a re-analysis of the deposited data

How the results depend on the processing

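With 1 library per antibody and genotype, neither biological nor technical spread is known, and duplicates, depth and list length differ between libraries. Wild-type regions that narrowly passed the authors' p-value limit can appear lost. No paired analysis was possible because each antibody and genotype has 1 library and the shared numbers 1 and 2 belong to inputs without a peak list.

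Of the alternatives, cutting the longer list of each mark to the covered length of the other genotype moved the most counts. It cut mutant lists alone, down to a −log10 p of 10.6 in H3K27ac, 8.7 in H3K4me1, 34.9 in H3K4me3 and 13.3 in H3K27me3. Wild-type lists kept regions down to 5.12, 5.12, 5.51 and 5.11. The limits are thus unequal, and the cut can only take away mutant regions. Promoter H3K27ac was then gained by 1 member (1.64% against 1.29% of all genes). H3K4me1 was lost by 2 (3.28% against 2.64%) and gained by 0 (background 0.694%), and H3K4me3 was gained by 0 (background 0.075%). H3K27me3 was lost by 9 (14.8% against 3.64%) and gained by 1 (1.64% against 0.375%). Covered length was called shorter at 5 for H3K27ac (8.2% against 1.68%), 5 for H3K4me1 (8.2% against 2.5%) and 4 for H3K27me3 (6.56% against 1.36%). It was called longer at 0 for H3K4me3 (background 0.291%) and 3 for H3K27me3 (4.92% against 1.04%). H3K27ac regions near members were lost in 28.5% (28.7% of all) and gained in 13.4% (18.7%). H3K27me3 reversed to −0.601 kb at Ephb4, −0.276 at Ntn4 and −1.6 at Sema3a. At Ephb4 and Ntn4 these equal the whole wild-type lengths, so the cut had removed all mutant coverage there. Their strongest promoter regions had folds of 2.73 and 3.24 in wild type and 4.28 and 4.42 in the uncut mutant list. At a −log10 p of at least 10, H3K27ac was gained by 1 (1.64% against 2.72%). H3K4me1 was lost by 4 (6.56% against 2.3%) and gained by 0 (background 1.63%), and H3K4me3 was gained by 0 (background 1.24%). H3K27me3 was lost by 1 (1.64% against 0.539%) and gained by 11 (18% against 3.5%). H3K4me1 length was called shorter at 4 (6.56% against 2.08%) and H3K4me3 longer at 1 (1.64% against 2.2%). LHX6 peaks then lay near 1 member, and 14.5% of H3K27ac regions were lost (16.3% of all). With promoters of 1 kb, H3K4me1 was lost by 2 (3.28% against 1.38%) and gained by 0 (background 1.05%). H3K4me3 was gained by 0 (background 1.2%) and H3K27me3 lost by 1 (1.64% against 0.446%).

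With windows of 25 kb, H3K27ac was called shorter at 1 (1.64% against 1.55%), H3K4me1 longer at 5 (8.2% against 2.55%) and H3K27me3 shorter at 1 (1.64% against 0.385%). In the union of windows around each TSS, H3K4me3 was called longer at 1 (1.64% against 1.55%) and Sema6d reversed in H3K27ac to −1.14 kb. At a 2-fold call, H3K27ac was longer at 3 (4.92% against 1.37%) and shorter at 1 (1.64% against 0.441%). H3K4me1 was longer at 1 (1.64% against 0.464%) and shorter at 0 (background 0.427%), and H3K4me3 longer at 0 (background 0.614%). With a change of at least 2 kb, H3K27ac and H3K4me1 were shorter at 0 (background 0.441% and 0.211%). H3K4me3 was longer at 1 (1.64% against 0.901%) and H3K27me3 longer at 6 (9.84% against 1.29%). Within 10 kb of a TSS, NKX2-1 peaks lay near 10 members and LHX6 peaks near 0, given without a share of all genes. Where regions within 1 kb counted as overlapping, 10% were lost (12.8% of all) and 14.7% gained (20.9%), and where 50% had to be covered, 22.6% (23.4%) and 28.2% (35.4%). Without Unc50 and Unc5cl, an alternative chosen after seeing the data, H3K4me1 was gained by 0. Among the H3K27ac calls, Sema5a held under 6 of 6 settings, Sema6d, Unc5a and Unc5b under 5, Plxna4 and Epha8 under 4, Efnb2 under 3 and Sema6b under 2. Of the counts and shares, 47 moved and 112 stayed within the limits, and some of the 112 still shifted widely. Members with promoter H3K27me3 in wild type fell from 37 to 25 at a −log10 p of at least 10. Those in the mutant fell from 40 to 29 at the same covered length, where wild type stayed at 37. The share of all genes with the mark was not computed at these settings. At the same covered length 3.64% of all genes lost it and 0.375% gained it, so the background fell too. The cause of these differences was not tested.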
